A study of Pan troglodytes and Macaca mulatta with 12 samples.

Results

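The major histocompatibility complex (MHC) is a dense cluster of immune genes. The members described here are the 124 gene identifiers, of 16903 in all, whose listed exons lie on chromosome 6 between positions 29600000 and 33300000 in the coordinates of the deposited counts. No source used here gives the genome build. By position, 50 members start in the first 2 Mb of this window (called the class I stretch), 53 in the next 0.9 Mb (the class III stretch) and 21 in the last 0.8 Mb (the class II stretch). Levels were read by RNA sequencing in lymphoblastoid cell lines, that is B lymphocytes turned into permanently growing cultures. There was 1 line from each of 6 chimpanzees (3 female, 3 male) and 6 rhesus macaques (2 female, 4 male). No treatment is given in the labels, and ages are not given. Human lines that the series design also names were not analysed here.

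In general, class I molecules carry peptides from inside the cell to the surface, where cytotoxic T cells read them, and class II molecules carry peptides from engulfed material to helper T cells. Class II molecules are a known feature of B lymphocytes and other cells that present antigen. The region between holds genes of many roles, among them complement proteins and members of the tumour necrosis factor family, and each stretch also holds genes with no immune role. The reference tables at hand paired none of the 16903 identifiers with a symbol. Members are therefore given no gene name or role here and are called by their order along the window, gene 1 to gene 124, with the first and last listed position. For the same reason neither the line label nor the MHC label could be checked against marker genes.

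Library totals ran from 1434241 to 4751954 counts over all listed exons. The mean correlation of a library with the other 5 of its species, over all tested genes on the log2 scale, was lowest in chimpanzee replicate 1 (0.857) and otherwise lay between 0.871 and 0.924. Chimpanzee replicate 1 was also the shallowest library and the one whose 638 tested genes of chromosome 19 lay lowest within its species, with a median deviation of -0.66 on the log2 scale. In rhesus macaque, replicates 5 and 6 had the lowest such values, -0.24 and -0.25. The counts of members called for species are given with and without these 3 libraries; the other comparisons were not rerun without all 3.

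Of the 124 members, 83 had enough counts to be tested for a species difference, 29 in the class I, 37 in the class III and 17 in the class II stretch. A member entered the test where enough libraries held about 10 counts, so one that was high in 1 species only could enter through that species. That was so for 3 members, genes 62, 97 and 100, in which no library of the lower species reached the filter's level, so they had to differ; the other 80 include 10 higher and 22 lower members in the species test below. The other 41 members (21, 16 and 4 by stretch) held at most 199 counts over all 12 libraries, and 22 of them are single-exon entries. The default filter left them out: fitted with no filter, 8 of the 41 passed, 4 higher and 4 lower. Among these 41, 4 had no count in any chimpanzee library and 9 had none in any rhesus macaque library. The matching counts over all genes left out by the filter are not given here, so these are not shown to be particular to the members. No tested member was at 0 throughout 1 species.

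As a whole, the share of counts in the window did not separate the species. The members held 2.15% ± 0.329 (SD, n = 6 lines) of a library's counts in chimpanzee and 2.08% ± 0.124 in rhesus macaque. The chimpanzee values ran from 1.69% to 2.52% and enclosed all those of rhesus macaque, 1.90% to 2.21% (two-sided exact permutation test, adjusted p = 0.825 over 4 shares). The class I stretch held 0.683% ± 0.129 and 0.689% ± 0.0576 (exact permutation test, adjusted p = 0.905), and the sign of this small difference turned when 1 of 4 libraries was left out. The class III stretch held 0.565% ± 0.101 in chimpanzee and 0.641% ± 0.0617 in rhesus macaque (exact permutation test, adjusted p = 0.307).

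The class II stretch had the largest mean share of the 3 in both species, though in rhesus macaque replicates 3 and 4 the class I share was larger. It took 0.906% ± 0.172 of the chimpanzee counts and 0.752% ± 0.121 of the rhesus macaque counts, a mean 1.20 times higher in chimpanzee. The ranges overlapped, from 0.653% to 1.13% in chimpanzee and from 0.650% to 0.984% in rhesus macaque, and the difference did not pass (two-sided exact permutation test, p = 0.104, adjusted p = 0.307). The highest rhesus macaque value was that of replicate 5, with the other 5 lines at 0.767% or below. A single member can weigh heavily in such sums: gene 39 (30799096 to 30801182) held 53.0% of the class I counts in chimpanzee and 40.4% in rhesus macaque. Without gene 39, the difference in class I share (chimpanzee minus rhesus macaque) was -0.0915 percentage points (exact permutation test, adjusted p = 0.0346). Of the members left, gene 25, a single exon of 270 bases, had 3563 counts over the chimpanzee and 18150 over the rhesus macaque libraries. Its part in this difference was not tested, so the difference is not shown to be one of the class I stretch as a whole.

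**Figure D1:**
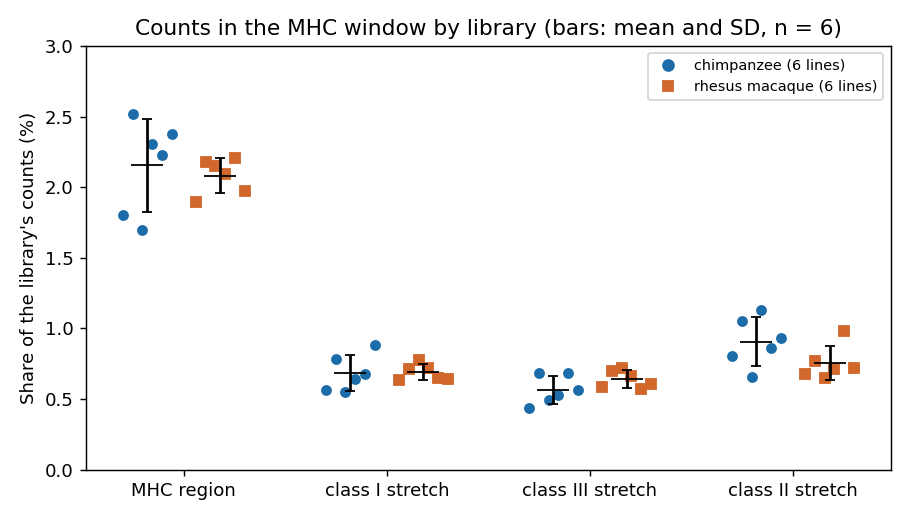
Share of each library's counts (%) that fell in the window and in its 3 stretches; each point is 1 line, and bars are the mean and SD of 6 lines. The species overlap in all 4 shares, and the class II stretch shows the highest rhesus macaque point, replicate 5, at 0.984%.

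Gene by gene, more members were lower in chimpanzee than higher. Of the 83 tested, 11 were higher in chimpanzee, 24 were lower and 48 did not pass (edgeR quasi-likelihood test, Benjamini-Hochberg adjusted p under 0.05 over all 9440 tested genes). Thus 13.3% of the tested members were higher and 28.9% lower, against a background of 24.7% higher and 23.6% lower over all tested genes. In either direction 42.2% of tested members passed, against 48.3% of all tested genes. The median log2 fold change (chimpanzee over rhesus macaque) of the tested members was -0.25, beside 0.04 for all tested genes and -0.01 for the 448 tested genes of chromosome 6 outside the window, of which 110 were higher and 103 lower. The median size of the difference, regardless of sign, was 0.60 on the log2 scale in members and 0.71 in all tested genes.

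The 3 stretches gave different mixes. In the class I stretch 5 members were higher and 7 lower, with a median log2 fold change of -0.18. The class III stretch had 5 higher and 14 lower, and a median of -0.42. All 3 members that entered the test through 1 species only, and so had to differ, are in this stretch. Gene 62 is among its higher members, and genes 97 and 100 are among its lower ones. In the class II stretch 1 was higher and 3 were lower, with a median of -0.25, and all 3 lower members start in its last 0.1 Mb, where 4 members were tested. Of the other 13 tested class II members, the 1 that passed was higher, and their median log2 fold change was 0.14. Whether the stretches differ from each other was not tested.

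Differences were also tested for size. Tested against a 2-fold difference rather than against none (edgeR glmTreat, same adjustment), 2 of the 83 members were higher and 7 lower, beside a background of 8.77% and 8.56% of all tested genes. The lower count is close to its background share, and the higher count is below it. Without genes 62, 97 and 100 the counts are 1 higher and 5 lower. Without the 3 libraries named above they are, over all tested members, 3 higher and 5 lower. In 23 members (the 3 just named included), or 27.7%, the 2 species did not overlap in any library, 6 of them higher and 17 lower in chimpanzee, against 27.1% of all tested genes. By stretch these 23 are 6 class I, 15 class III and 2 class II members. Genes 62, 97 and 100 are all among the class III ones, and of the other 80 tested members 20 did not overlap. Leaving out each of the 12 libraries in turn, 31 of the 35 calls were made in every fit, namely 24 lower and 7 higher. Without the 3 libraries named above, 23 of the 24 lower and 7 of the 11 higher calls were still made. With males only, 3 chimpanzee against 4 rhesus macaque lines, 13 lower and 5 higher calls were still made.

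**Figure D2:**
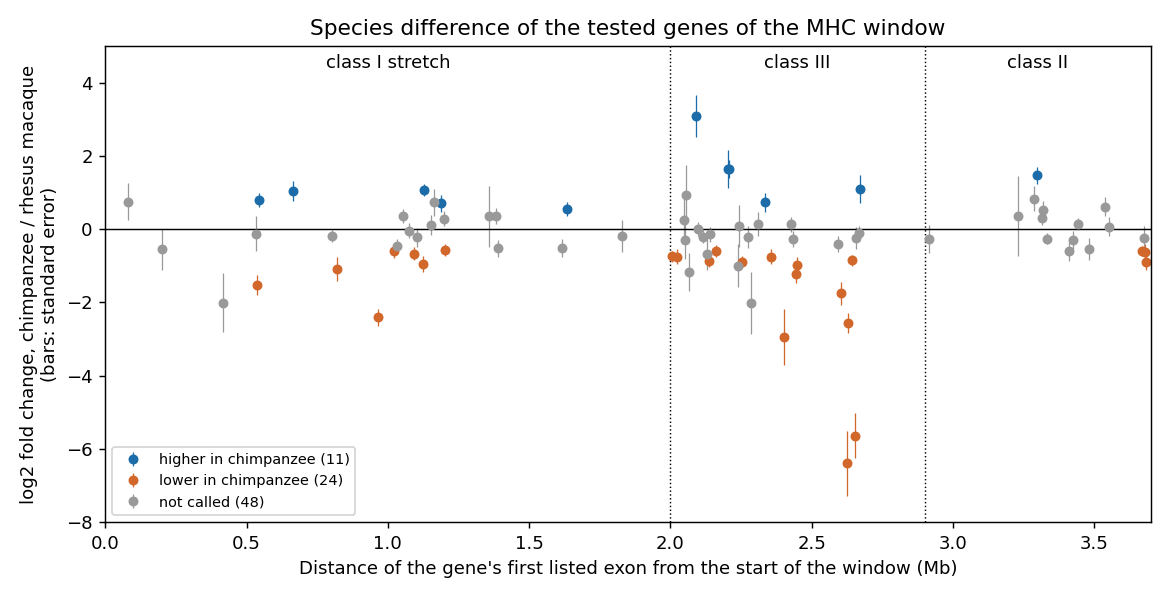
Log2 fold change (chimpanzee over rhesus macaque, with its standard error as a bar) of the 83 tested members against the distance in Mb of their first listed exon from the start of the window; dotted lines divide the stretches. The lower members are most frequent in the class III stretch, where the 2 lowest points, at -6.40 and -5.63, are genes 97 and 100, nearly unread in chimpanzee.

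In the class I stretch, gene 39 was the most abundant of all members and did not separate the species. It is listed as a single exon of 2087 bases. Its level in CPM (counts per 1000000 counts of the library, after edgeR scaling) ran from 2511 through a median of 3369 to 5092 in chimpanzee and from 2124 through 2733 to 3655 in rhesus macaque. The means were 3555 ± 864 and 2929 ± 600, and the log2 fold change of 0.28 (SE 0.20) did not pass (edgeR, adjusted p = 0.272). The next by mean level, gene 25 (ENSG00000204592, 30565482 to 30565751), differed most within this stretch. Its chimpanzee values ran from 111 through 216 to 259 CPM and its rhesus macaque values from 847 through 1050 to 1455 CPM. Every rhesus macaque line was thus far above every chimpanzee line, with means of 204 ± 53.8 and 1086 ± 217 CPM. The log2 fold change was -2.41 (SE 0.22, edgeR adjusted p = 1.95e-06, and 3.28e-05 against a 2-fold difference). This entry lists only 1 exon of 270 bases, so its level rests on a short stretch of sequence, and the part of that in the result was not tested.

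Other class I members were lower in chimpanzee by smaller factors. Gene 13 (30137013 to 30140665, 4 exons) had 22.6 to 56.9 CPM in chimpanzee against 72.4 to 176 CPM in rhesus macaque, a log2 fold change of -1.52 (SE 0.27, edgeR adjusted p = 0.000336). The species did not overlap, and all 4 of its exons pointed the same way. Genes 24, 25 and 26 (30420923 to 30632987), picked out after the calls were seen, were 3 tested members in a row that were all lower. Their log2 fold changes were -1.08, -2.41 and -0.60. Gene 40 (30803492 to 30817959), next to the abundant gene 39, had means of 215 ± 36.1 and 319 ± 41.5 CPM and a log2 fold change of -0.57 (edgeR adjusted p = 0.00914). Its species ranges overlapped, from 190 to 284 CPM and from 262 to 365 CPM.

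On the higher side of the class I stretch, gene 35 (30728886 to 30748736) had 157 to 208 CPM in chimpanzee against 66.6 to 115 CPM in rhesus macaque. The log2 fold change was 1.07 (SE 0.17, edgeR adjusted p = 0.000159), and all 18 of its exons pointed the same way. Its neighbour gene 34 (30725314 to 30728959) went the opposite way at -0.95 (edgeR adjusted p = 0.00224). These entries overlap at their ends by position, and the steps described for the libraries mark no strand, so reads of the overlap cannot be told apart. Gene 21 (30264923 to 30276894) had 56.5 to 115 CPM in chimpanzee against 18.6 to 50.9 CPM in rhesus macaque, a log2 fold change of 1.04 (SE 0.26, edgeR adjusted p = 0.00473). Neither gene 35 nor gene 21 passed the test against a 2-fold difference (edgeR adjusted p = 0.483 and 0.608).

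The remaining abundant class I members did not pass. Gene 36 (30752145 to 30761802) had means of 431 ± 97.7 and 395 ± 189 CPM (edgeR adjusted p = 0.732). Gene 28 (30653165 to 30662467) had 277 ± 43.9 and 215 ± 54.6 CPM (edgeR adjusted p = 0.122). Gene 30 (30676162 to 30692754) had 166 ± 35.5 and 171 ± 45.3 CPM (edgeR adjusted p = 0.891). Gene 43 (30989961 to 31002212) had 145 ± 51.7 and 208 ± 30.6 CPM (edgeR adjusted p = 0.0698). Within each of these members the ranges of the species overlapped.

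**Figure D3:**
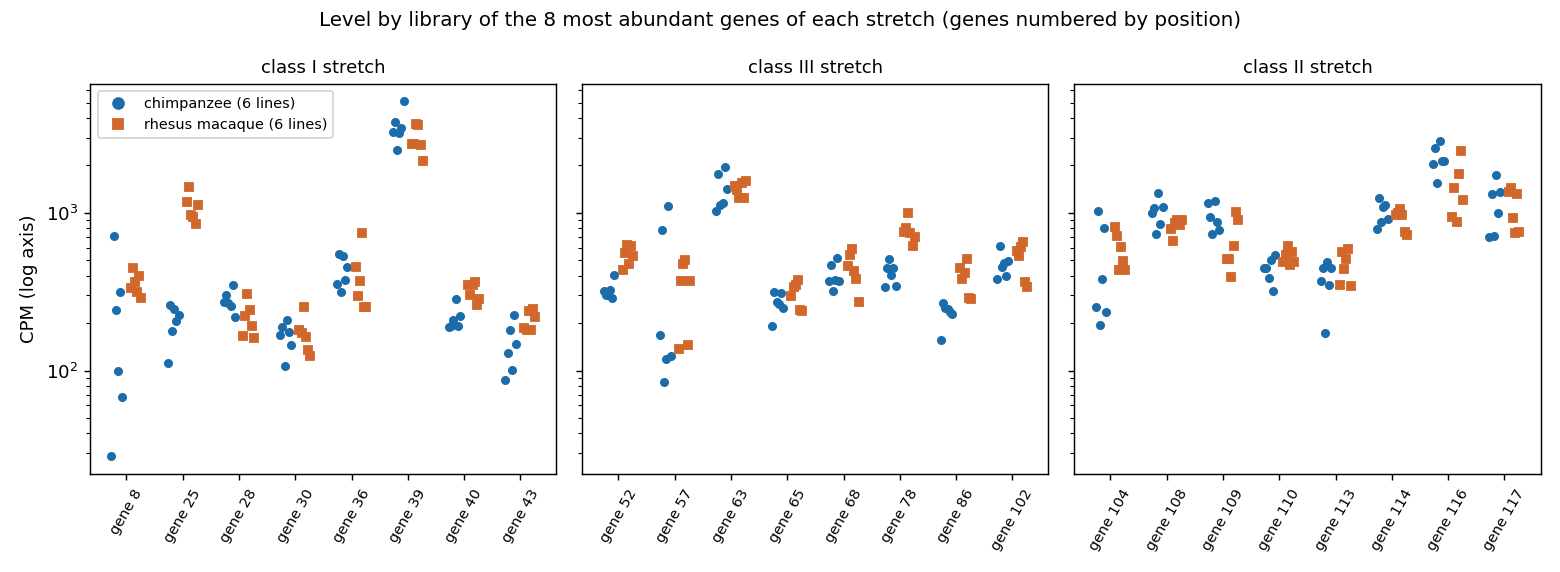
CPM (log axis) in each of the 12 lines for the 8 tested members of each stretch with the highest mean level; each point is 1 line. Gene 25 stands apart between the species, gene 8 and gene 57 spread widely within chimpanzee, and most class II members overlap.

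The class III stretch held a run of 5 neighbouring tested members that were all lower in chimpanzee. They are genes 96 to 100, from 32204465 to 32254406, and in each of the 5 no library of one species overlapped the other. The run was picked out after the calls were seen, and how often such runs occur among all tested genes was not counted. Genes 97 and 100 entered the test only through rhesus macaque, so the length of the run in part follows from the filter; the other 3, genes 96, 98 and 99, had log2 fold changes of -1.75, -2.56 and -0.86. The tested members on both sides of the run did not pass: gene 95 (32192235 to 32204008) had a log2 fold change of -0.42 and gene 101 (32256877 to 32259742) one of -0.24 (edgeR adjusted p = 0.127 and 0.537).

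The most abundant of the 5, gene 99 (32243967 to 32253851), differed least. It had 121 to 162 CPM in chimpanzee against 217 to 299 CPM in rhesus macaque, a log2 fold change of -0.86 (SE 0.15, edgeR adjusted p = 0.000347). Gene 98 (ENSG00000168452, 32229279 to 32244040) had 8.88 to 22.4 CPM, median 13.3, in chimpanzee against 46.9 to 107 CPM, median 82.8, in rhesus macaque. Its log2 fold change was -2.56 (SE 0.27, edgeR adjusted p = 5.15e-06), a 5.88-fold difference, and all 17 of its exons pointed the same way. Gene 98 and gene 99 overlap by position, as genes 34 and 35 do. Gene 96 (32204465 to 32205609, 1 exon of 1145 bases) had means of 11.7 ± 4.63 and 40.3 ± 14.7 CPM and a log2 fold change of -1.75 (SE 0.32, edgeR adjusted p = 0.000476).

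The other two of the run, chosen after their values were seen, were nearly unread in chimpanzee. Gene 97 (32225292 to 32228838, 5 exons) had 3 counts over the 6 chimpanzee libraries and 281 over the 6 rhesus macaque libraries. Scaled by library size, the rhesus macaque rate was 91.1 times the chimpanzee rate. The 95% exact interval of 30.9 to 444 covers counting error only. It leaves out the spread between lines and the choice of gene 97 by its values. All 3 chimpanzee counts fell on its last exon, and the 4 others were at 0 there while holding 27 to 107 counts in rhesus macaque. Gene 97 also varied among rhesus macaque lines, from 5.19 to 51.9 CPM. Gene 100 (32254109 to 32254406, 1 exon of 298 bases) had 4 and 271 counts, a ratio of 65.9 with an interval of 25.4 to 244 that has the same limits. Their fitted log2 fold changes of -6.40 and -5.63 depend on how counts near 0 are treated, and are given as a description, with no test.

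**Figure D4:**
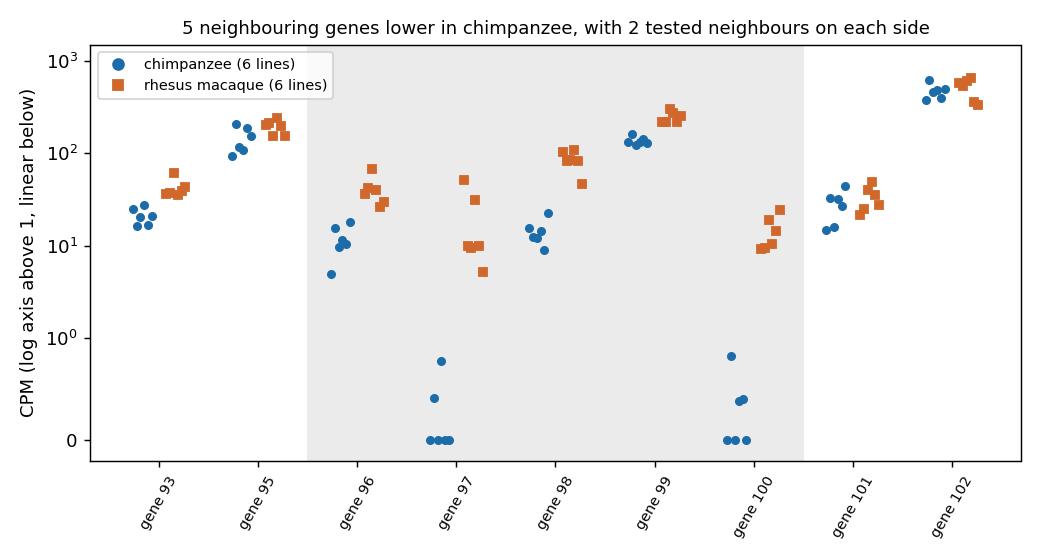
CPM (log axis above 1, linear below) in each of the 12 lines for genes 96 to 100, shaded, and the 2 tested members on each side; each point is 1 line. The species are separate in all 5 shaded members and overlap in genes 95, 101 and 102; gene 93 is also separate and lower in chimpanzee.

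Among the abundant class III members, some were lower in chimpanzee and others did not separate the species. Gene 78 (31853280 to 31871006) had 338 to 508 CPM in chimpanzee against 614 to 1002 CPM in rhesus macaque, a log2 fold change of -0.89 (SE 0.17, edgeR adjusted p = 0.000606). In 26 of its 27 tested exons the direction was the same. Gene 52 (31605975 to 31618204) had 290 to 404 and 437 to 628 CPM, a log2 fold change of -0.74 (SE 0.15, edgeR adjusted p = 0.00129). Gene 86 (31955515 to 31972272) had 156 to 269 and 285 to 510 CPM, a log2 fold change of -0.75 (SE 0.19, edgeR adjusted p = 0.00536). The species did not overlap in any of these 3 members. With males only, gene 86 no longer passed.

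The most abundant class III member, gene 63 (31696429 to 31713080, 29 exons), had means of 1408 ± 380 CPM in chimpanzee against 1417 ± 149 CPM in rhesus macaque, a log2 fold change of -0.01 (SE 0.19, edgeR adjusted p = 0.975). Chimpanzee lines ran from 1028 to 1961 CPM and enclosed the rhesus macaque lines at 1244 to 1602 CPM. Gene 68 (31740992 to 31748218) had 403 ± 74.2 and 446 ± 114 CPM, gene 65 (31714784 to 31728461) 267 ± 45.0 and 307 ± 57.2 CPM, and gene 102 (32266521 to 32268881) 471 ± 86.1 and 510 ± 131 CPM. The edgeR adjusted p-values of these 3 were 0.579, 0.364 and 0.674.

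The largest difference upward among members with at least 2 CPM in the lower species was that of gene 74 (ENSG00000213719, 31809592 to 31813074), in the class III stretch. It had 113 to 305 CPM, median 199, in chimpanzee against 44.3 to 90.8 CPM, median 61.7, in rhesus macaque. Every chimpanzee line was above every rhesus macaque line, and the log2 fold change was 1.64 (SE 0.25, edgeR adjusted p = 0.000124, and 0.0175 against a 2-fold difference). This member lists 3 exons, and 2 of them pointed upward. The other member beyond 2-fold upward, named after its values were seen, was gene 62 (31690987 to 31692777), with 6.01 to 12.3 CPM in chimpanzee against 0 to 3.17 CPM in rhesus macaque. It entered the test only through chimpanzee, and its log2 fold change of 3.08 is a description, with no test. When each gene's strongest exon was left out, which removes single-exon members from the fit, neither of these 2 passed against a 2-fold difference, and 2 in place of 7 lower members did.

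In the class II stretch, the most abundant members did not separate the species, and just 1 member before its last 0.1 Mb passed. Gene 116 (33140324 to 33145641) was the most abundant of the stretch, with 1547 to 2863 CPM, median 2136, in chimpanzee against 871 to 2473 CPM, median 1322, in rhesus macaque. Rhesus macaque replicate 5, at 2473 CPM, lay above 4 of the 6 chimpanzee lines, while the other 5 rhesus macaque lines reached at most 1775 CPM. The log2 fold change was 0.61 (SE 0.26, edgeR adjusted p = 0.0642). The call depended on the setting: the value passed at 0.82 without rhesus macaque replicate 5, at 0.71 without the gene's strongest exon, at 0.83 without the 3 libraries named at the start and at 1.02 with males only (edgeR adjusted p from 0.0110 to 0.0228).

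Gene 117 (33151738 to 33161661) had means of 1136 ± 402 and 1088 ± 315 CPM (edgeR adjusted p = 0.862), and chimpanzee lines alone ran from 705 to 1726 CPM. Gene 114 (33044415 to 33057260) had 1004 ± 171 and 913 ± 136 CPM (edgeR adjusted p = 0.527). Gene 108 (32916472 to 32920690) had 1012 ± 209 and 827 ± 91.3 CPM (edgeR adjusted p = 0.175). Gene 110 (32931893 to 32935340) had 442 ± 80.6 and 528 ± 56.1 CPM, and gene 113 (33024368 to 33028863) 379 ± 113 and 466 ± 106 CPM (edgeR adjusted p = 0.208 and 0.321). Gene 104 (32515625 to 32515787, 1 exon of 163 bases) had 483 ± 349 and 581 ± 157 CPM (edgeR adjusted p = 0.595). All of these members overlapped between the species.

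Genes 106 to 109, from 32888530 to 32929733, all had a higher mean in chimpanzee, and 1 of them passed. That was gene 107 (ENSG00000204267, 32897588 to 32914525), with 299 to 534 CPM, median 374, in chimpanzee against 96.2 to 212 CPM, median 129, in rhesus macaque. The species did not overlap, and the log2 fold change was 1.46 (SE 0.24, edgeR adjusted p = 0.000234). Against a 2-fold difference its edgeR adjusted p was 0.0549. Its neighbour gene 109 (32920965 to 32929733) had 738 to 1189 CPM in chimpanzee against 389 to 1014 CPM in rhesus macaque, a log2 fold change of 0.52 (SE 0.24, edgeR adjusted p = 0.0871). It passed at 0.64 without its strongest exon and at 0.68 without rhesus macaque replicate 5 (edgeR adjusted p = 0.0396 and 0.0293). Rhesus macaque replicates 5 and 6 were the highest of their species in genes 106, 107 and 109. Without rhesus macaque replicate 5 the number of higher class II members was 4 in place of 1, and the same 4 (genes 106, 107, 109 and 116) passed without the 3 libraries named at the start.

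The 3 lower class II members lie near the end of the window, with gene 120 between them not called. Gene 119 (33269343 to 33276410) had 113 to 166 CPM in chimpanzee against 188 to 220 CPM in rhesus macaque, a log2 fold change of -0.60 (edgeR adjusted p = 0.00384). Gene 121 (33280397 to 33282585) had means of 51.6 ± 5.54 and 78.9 ± 20.4 CPM, and gene 123 (33284255 to 33288468) 121 ± 25.6 and 228 ± 46.2 CPM, with log2 fold changes of -0.61 and -0.91 (edgeR adjusted p = 0.0245 and 0.00161). Gene 119 alone of these 3 did not overlap between the species.

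Levels per length give another order, since listed exon lengths differ widely. Per 1000 listed bases, gene 104, with its 163 bases, reached 2961 CPM in chimpanzee against 3567 CPM in rhesus macaque, and gene 39 reached 1703 and 1403 CPM. Gene 117 stood at 1589 and 1522 CPM per 1000 bases, and gene 116 at 1501 and 984 CPM. Gene 50 (31430389 to 31430421) reached 3368 and 3816 CPM per 1000 bases on only 33 listed bases. Gene 25, on 270 bases, stood at 756 CPM per 1000 bases in chimpanzee and 4022 in rhesus macaque, the largest rhesus macaque value of any member. Gene 9, on 74 bases, stood at 562 and 2279 CPM per 1000 bases. Of the 83 tested members, 10 are listed as a single exon of 33 to 2087 bases, and 3 have fewer than 100 listed bases. The part of such short listings in these levels was not tested.

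The spread between lines of a species was slightly smaller in members than in all genes. The median SD of log2 CPM over the 6 lines was 0.39 in chimpanzee and 0.41 in rhesus macaque for tested members, beside 0.48 and 0.45 for all tested genes. A few members varied far more. Gene 8 (29799414 to 29803862) ran from 28.6 to 710 CPM in chimpanzee, with replicate 2 highest, and from 287 to 448 CPM in rhesus macaque. In gene 57 (31647810 to 31650080), chimpanzee replicates 2 and 5 had 777 and 1111 CPM, and the other 4 chimpanzee lines had 84.4 to 169 CPM. Gene 58 (31651329 to 31654091), next to it, ran from 13.9 to 128 CPM in chimpanzee. There replicates 1, 2 and 5 had 128, 118 and 102 CPM, and the other chimpanzee lines had 13.9 to 58.6 CPM. In both genes replicates 1, 2 and 5, the male chimpanzee lines, lay above all the female ones.

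In rhesus macaque the widest spreads among members with a mean of at least 20 CPM were in 3 others. Gene 9 (30018309 to 30018382, 74 listed bases) had 585 CPM in replicate 6 and at most 188 CPM in the other 5 lines. Gene 80 (31885376 to 31890814) had 177 and 186 CPM in replicates 2 and 3 and 3.89 to 17.7 CPM in the other 4 lines. Genes 9 and 80 had log2 fold changes of -2.01 and -2.02 that did not pass (edgeR adjusted p = 0.0510 and 0.0604). Both passed as lower in some alternative fits, among them the DESeq2 Wald test (adjusted p = 0.0151 and 0.0186), but not in others. Gene 88 (32003473 to 32021428) ran from 2.96 to 68.3 CPM in rhesus macaque and from 0.698 to 6.86 CPM in chimpanzee, a log2 fold change of -2.94 (SE 0.76, edgeR adjusted p = 0.00536) that did not pass with males only. The high lines thus differed between genes: replicates 2 and 3 led in gene 80, and replicates 1 and 6 in gene 88. A class II entry below that level, gene 105 (32831853 to 32833059, named after its values were seen), spread still wider, with an SD of log2 CPM of 2.79, the widest of all tested members in rhesus macaque. It had 71 and 80 counts in rhesus macaque replicates 1 and 3, 1 and 7 in replicates 2 and 4, and 0 in replicates 5 and 6. In every chimpanzee line it had 11 to 108 counts.

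Some lines were high or low over many members at once. Chimpanzee replicate 2 lay above its species mean in 63 of the 83 tested members and replicate 1 in 22 of them, with median deviations of 0.22 and -0.23 on the log2 scale. Outside the window, these lines went the same way in the 638 tested genes of chromosome 19, with median deviations of 0.23 and -0.66. No such counts over all tested genes are given here, so the shifts are not shown to be particular to the members. Chimpanzee replicates 2 and 5 were the 2 highest lines in 23 members (27.7%), and in 15.9% of all tested genes, the most frequent chimpanzee pair in both. The most frequent rhesus macaque pair over all tested genes, replicates 5 and 6, led in 18.02% of them and in 7 members (8.43%). Among members the most frequent rhesus macaque pair was replicates 2 and 3, in 13 (15.7%), against 10.4% of all tested genes. Replicates 3 and 4 followed in 12 members (14.5%), against 7.18% of all tested genes. In the class II stretch, chimpanzee replicate 3 lay above the species mean in 3 of 17 tested members (median deviation -0.42) and replicate 4 in 13 (median deviation 0.35). Among rhesus macaque lines, replicate 5 was above the mean in 13 of 17 class II members (median deviation 0.34) but in 12 of 29 class I and 15 of 37 class III members.

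Summed levels of the stretches were compared across the 6 lines of each species, 6 relations in all. In rhesus macaque the class I and class III sums had a Pearson r of 0.95 (exact permutation p = 0.00972, adjusted p = 0.0583) and a Spearman rho of 0.89 (exact permutation p = 0.0333, adjusted p = 0.2), and r was 0.95 without the 2 lines farthest from the class I median. It did not pass after adjustment. The other 5 relations had Pearson r between -0.59 and 0.64, each with an adjusted exact permutation p of 0.357. None of these 5 passed, and for class II with class III in rhesus macaque the sign rested on single lines, since r was -0.59 over 6 lines and 0.98 without the 2 lines farthest from the class II median, replicates 3 and 5. Sums within 1 line share its library size.

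The exon counts allowed a second comparison, whether single exons made up another share of a member's counts in each species. Of 77 members tested, 7 passed (edgeR diffSpliceDGE, Simes p per gene, adjusted over all genes), which is 9.09% beside a background of 4.27%. Exon by exon, 9 of 652 tested member exons passed, beside a background of 0.852% of all tested exons, and 8 of these 9 took a larger share in chimpanzee. The count depended on the statistic: by the gene-level F test 23 members passed, against 16.8% of all genes. Of the 7 members, genes 21 and 74 were also called for their level, and the other 5 (genes 61, 63, 90, 109 and 114) were not.

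The exons that passed were mostly minor parts of their gene. In gene 21, exon 5 (30276791 to 30276894) held 5.39% ± 1.28 of the gene's counts in chimpanzee and 0.110% ± 0.269 in rhesus macaque, where only replicate 5 had a count, of 1. In gene 114, exon 5 (33051786 to 33051924) held 2.73% ± 0.411 and 0.758% ± 0.209, and exon 4 beside it 2.44% ± 0.914 and 0.898% ± 0.402. In none of these 3 exons did the species overlap. Gene 63 had 2 such exons, of which exon 19 (31709992 to 31710121) held 1.95% ± 0.285 and 0.771% ± 0.144. In gene 109, exon 9 (32928143 to 32928257) held 6.19% ± 1.32 of the gene in chimpanzee against 2.19% ± 0.525 in rhesus macaque.

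The exception in direction was exon 3 of gene 74 (31812552 to 31813074), the member that was 3.11-fold higher in chimpanzee as a whole. This exon had 2 counts over all chimpanzee libraries and 22 over all rhesus macaque libraries, 0.0578% ± 0.0943 and 2.20% ± 1.57 of the gene. In gene 61 (31664652 to 31665882), exon 1 overlaps another member, had 21 chimpanzee counts and 1 rhesus macaque count, and its share of 14.3% to 100% in chimpanzee rests on 1 to 13 counts per line. In gene 90 (32027846 to 32034210), exon 7 of 70 bases held 4.41% ± 2.49 and 0.824% ± 0.480. Where a whole member was called and at least 5 of its exons were tested, 23 members in all, every exon pointed the gene's way in 14.

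**Figure D5:**
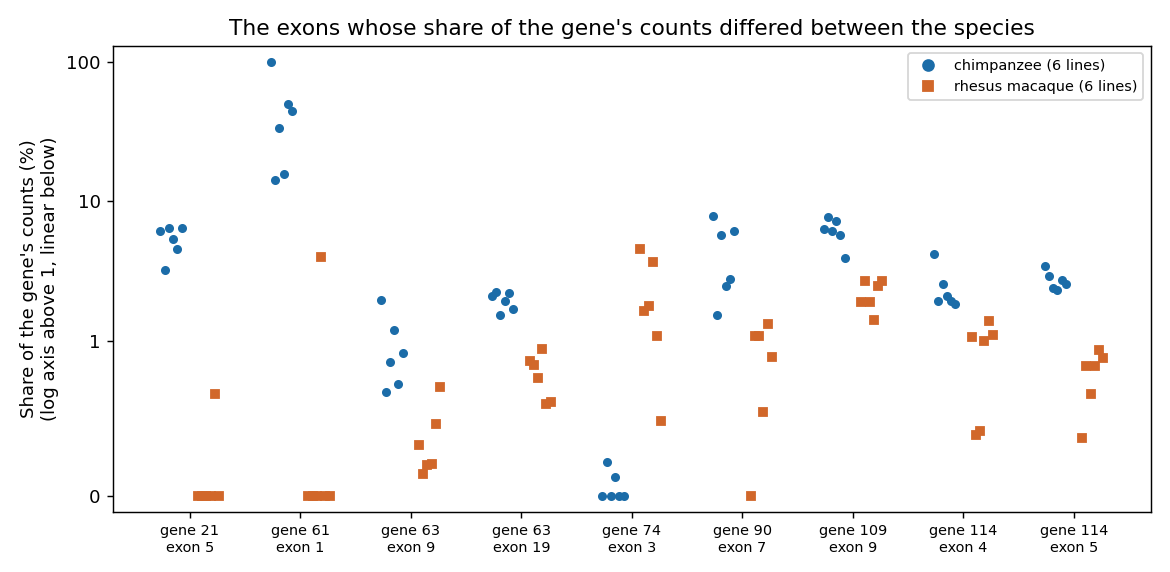
Share (%, log axis above 1, linear below) of the gene's counts that fell on each of the 9 exons that passed, in each of the 12 lines; each point is 1 line. In 8 exons the chimpanzee points lie higher, and exon 3 of gene 74 is the exception.

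Gene 8 showed how far a member's level can rest on 1 exon. Of its 4 listed exons, 2 held nearly all counts. The first (29799414 to 29799683) had 38 to 1008 counts in chimpanzee lines and 66 to 258 in rhesus macaque lines. The second (29799929 to 29800204) had 2, 707, 296, 12, 261 and 31 counts in chimpanzee replicates 1 to 6 and 433 to 1361 in rhesus macaque. The first exon thus held 53.7% to 94.6% of the gene in chimpanzee and 7.82% to 20.8% in rhesus macaque. In the exon usage test gene 8 did not pass by the Simes p (edgeR diffSpliceDGE, adjusted p = 0.136). It did pass by the gene-level F test (adjusted p = 0.00947). On all exons the log2 fold change of gene 8 was -0.55 and did not pass (edgeR adjusted p = 0.431), and without its strongest exon it was 1.56 and passed, with the opposite sign (edgeR adjusted p = 0.0176). Without chimpanzee replicate 2, the highest line, it was -1.25 and passed as lower (edgeR adjusted p = 0.0457).

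In the 21 members with at least 200 counts in every library, the share of the strongest exon had a median SD over lines of 4.35 percentage points in chimpanzee and 4.51 in rhesus macaque, beside 4.31 and 4.51 in the 1001 genes of all chromosomes read as deeply. The widest member in rhesus macaque was gene 116, with an SD of 10.3 points. Over all 811 member exons, 9 had no chimpanzee count and at least 10 rhesus macaque counts, 4 of them in gene 97, and 3 exons had the reverse. The matching counts over all exons are not given here, so these are not shown to be particular to the members.

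Sex was compared within each species, 3 females against 3 males in chimpanzee and 2 against 4 in rhesus macaque. No member and no other gene passed in either species (edgeR, adjusted over 11045 genes, so a background of 0% called in chimpanzee and 0% in rhesus macaque). At an unadjusted p under 0.05, 4 of 91 tested members differed by sex in chimpanzee and 3 in rhesus macaque, beside 797 and 268 of all 11045 tested genes. DESeq2 called 1 member in chimpanzee, gene 57, whose 2 high lines (replicates 2 and 5) are both male, and 0 in rhesus macaque. The difference between the species in the sex effect had 5 members at an unadjusted p under 0.05 and 0 after adjustment.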

How the data were processed

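Per the labels' protocols, RNA of cultured lines was made into adapter-ligated cDNA libraries, size selected, amplified by PCR and read on a Genome Analyzer II; no step marks strand. The authors deposited whole-number counts per exon, 1 table per library, listing exons with at least 1 count; no source used here gives the aligner, counter or genome build. Exons missing from a table were taken as 0, and exon counts were summed per gene identifier. Of 811 member exons, 14 overlap another member (7 gene pairs), so their reads cannot be told apart.

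Gene counts were fitted over all genes with edgeR 4.0.16 (limma 3.58.1, R 4.3.3): TMM scaling, the default filter (minimum count 10, minimum total 15), quasi-likelihood test for species, glmTreat at 2-fold, diffSpliceDGE on exons with at least 10 counts, and Benjamini-Hochberg adjustment at 0.05. Log2 values for spread use a prior count of 2. Shares of counts and correlations were tested by exact permutation over libraries (scipy 1.17.1). Scripts were tested on simulated counts. Alternatives included DESeq2 1.42.0. Each line is a separate individual. Replicate numbers follow the order of the samples and pair nothing.

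Members named are the 8 most abundant tested per stretch, the 4 largest separated differences per direction (at least 2 CPM in the lower species), up to 4 by exon usage, and the 3 most variable per species (mean of at least 20 CPM); others are marked as chosen after their values were seen or are neighbours or counted groups of these. Members and lists were chosen with earlier results of these data known. Planned lists of immune genes and cell type markers need symbols and were not run. Sequences were not used here.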

Additional observations from a re-analysis of the deposited data

Results flagged for a closer look

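In 80 groups of 6 lines, the gap between an extreme line and its nearest neighbour was divided by the group's range. In 6 groups this ratio was above Dixon's 95% critical value; chance gives about 1 in 20 groups. In chimpanzee, gene 52 (31605975 to 31618204) had 1 line far above the others (replicate 6 at 404 CPM, ratio 0.677). Gene 86 (31955515 to 31972272) had 1 chimpanzee line far below (replicate 1 at 156 CPM, ratio 0.713), as had gene 113 (33024368 to 33028863; replicate 3 at 174 CPM, ratio 0.682). In rhesus macaque, gene 21 (30264923 to 30276894) had replicate 6 far below at 18.6 CPM (ratio 0.692), and gene 98 (32229279 to 32244040) the same line at 46.9 CPM (ratio 0.666). The class II share of rhesus macaque replicate 5, at 0.984% of its counts, lay far above the other 5 lines (ratio 0.648).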

How the results depend on the processing

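With males only, which leaves fewer lines as well as 1 sex, the calls of 11 higher and 24 lower members were 7 and 13; by stretch 2 and 4 (class I), 2 and 8 (class III) and 3 and 1 (class II), and 1 member was higher beyond 2-fold. With no filter on low counts, 14 members were higher and 29 lower, 8 class I members were higher and 5 members were higher beyond 2-fold. Without each gene's strongest exon, 1 class III and 3 class II members were higher, 0 higher and 2 lower members remained beyond 2-fold (edgeR glmTreat), and gene 8 turned to 1.56. With exons kept only where at least 3 libraries per species had counts, 1 higher and 4 lower were beyond 2-fold. Without the 3 libraries low in chromosome 19 genes, an alternative chosen after seeing the data, 3 class III and 4 class II members were higher. Leaving out 1 library at a time gave 8 to 12 higher and 24 to 27 lower members, of which class I held 3 to 5 higher and 7 to 9 lower, class III 3 to 6 and 14 to 15, and class II 1 to 4 and 3 to 4. Beyond 2-fold the ranges were 1 to 4 higher and 5 to 7 lower, and 4 to 9 members passed for exon usage (23 by the gene-level F test). Class I had 3 higher without chimpanzee replicate 2 or rhesus macaque replicate 2 or 5, class III 3 without chimpanzee replicate 4, and class II 4 without rhesus macaque replicate 5 and 2 without chimpanzee replicate 3 or rhesus macaque replicate 6. Beyond 2-fold, 1 was higher without chimpanzee replicate 4 and 4 without rhesus macaque replicate 1, 5 or 6; exon usage fell to 4 calls without chimpanzee replicate 6 or rhesus macaque replicate 1 or 4.

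The difference in share of counts, chimpanzee minus rhesus macaque, ran from -0.000567 to 0.164 percentage points for the window, from -0.0463 to 0.0202 for class I, from -0.0991 to -0.0494 for class III and from 0.109 to 0.204 for class II when 1 library was left out. The window's difference was negative without chimpanzee replicate 2. The class I difference turned without chimpanzee replicate 1 (0.0176), 3 (0.0202) or 4 (0.00181) or rhesus macaque replicate 3 (0.0115). Without the member with most counts it was -0.0133 for the window and -0.0915 for class I. DESeq2 called 1 member by sex in chimpanzee. Among 36 named members, 683 of 711 alternative fits kept direction and call, 25 newly passed, 2 no longer passed and 1 turned. The causes were not tested. No paired analysis was possible, because each line is a separate individual and the labels pair no lines. Depth limits the 41 members left out by the filter, which had at most 199 counts in all.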
